A study of Mus musculus with 5 samples.

Results

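Natural killer (NK) cells were selected on the measured UMIs of a few genes in single-cell RNA counts of mouse skin, and 124 of 26845 kept cells met it. A kept cell had at least 200 detected genes and at most 10% of its unique molecular identifiers (UMIs, counted RNA molecules) on mitochondrial genes. An NK cell then had at least 1 UMI of Ncr1 or Klrb1c, at least 1 UMI of Nkg7 and 0 UMIs of Cd3d, Cd3e and Cd3g together. It also held under 50 UMIs per 10000 of MHC class II genes (H2-Aa, H2-Ab1, Cd74) and of the keratins Krt5 and Krt14. T cells of the same libraries, used for comparison, had at least 2 Cd3 UMIs, 0 UMIs of Ncr1 and Klrb1c and the same limits on MHC class II and keratins, and there were 933 of them. The levels of these gate genes follow from the choice of cells and are no result.

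NK cells are innate lymphocytes that kill infected, transformed or stressed cells with perforin and granzymes and release interferon gamma and chemokines. Each NK cell weighs signals from activating and inhibitory receptors, many of them lectin-like proteins encoded together in the NK gene complex, and activating receptors signal through adaptors such as Tyrobp and Fcer1g. In skin, related innate lymphocytes include tissue-resident type 1 innate lymphoid cells, which share Ncr1, Klrb1c and Xcl1 with NK cells.

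The study captured live-sorted cells of C57BL/6 mouse skin in droplets with 10x Genomics 3' v1 chemistry, and asked, by its title, how skin cells differ between homeostasis and repair. Skin was either un-wounded (2 libraries, with no age stated) or wounded (3 libraries), where mice aged 7 weeks had received a 6-mm punch and the wound region was taken with a 10-mm punch 4 days later. No library carried a transgene or a drug treatment according to the labels. Whether the 5 libraries came from 5 animals is not stated, so p-values refer to these libraries alone. The spread between them may be technical.

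Libraries held 4152 to 7578 barcodes and 33537809 to 59621412 UMIs. The NK cells had median depths of 4481 UMIs in un-wounded library 2 and 4338, 3940 and 4024 in wounded libraries 1, 2 and 3, and T cells of those libraries 3505.5, 4056, 3513 and 3832. T cells of un-wounded library 1, where no NK cell was found, were shallower, with a median of 2120 UMIs. After kept cells were thinned to 1500 UMIs, 0 and 3 un-wounded and 12, 65 and 23 wounded cells met the NK rule. Among kept cells, 394 barcodes occurred in more than 1 library (24 to 61 in each of the 10 pairs), and 3 NK cells had such a barcode. Levels are given as CPM, the counts per 1000000 UMIs of the summed cells. Every interval, and every limit drawn from a count of 0, allows for counting error alone.

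NK cells were rare in un-wounded skin. Un-wounded library 1 held 0 of 5264 kept cells (exact Clopper-Pearson 95% interval 0 to 0.0701%). Un-wounded library 2 held 5 of 5374 cells, or 0.0930% (0.0302 to 0.217%). Wounded libraries 1, 2 and 3 held 17 of 7516 cells (0.226%, 0.132 to 0.362%), 77 of 4567 cells (1.69%, 1.33 to 2.10%) and 25 of 4124 cells (0.606%, 0.393 to 0.894%). Every wounded library thus lay above both un-wounded libraries, and the wounded libraries differed among themselves by more than their counting intervals. The mean share was 0.0465 ± 0.0658% (SD, n = 2) in un-wounded and 0.839 ± 0.757% (SD, n = 3) in wounded skin, a difference of 0.793 percentage points (two-sided exact permutation test over 10 assignments, p = 0.2). Without wounded library 2, which held 77 of the 119 wounded NK cells, the difference was 0.370 percentage points.

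Measured among lymphocytes, the difference was larger than the spread in each group. NK cells made up 0% and 2.73% of NK plus T cells in un-wounded libraries 1 and 2, where the Clopper-Pearson interval of the count of 0 reaches 2.68%. They made up 14.0%, 18.9% and 11.9% in wounded libraries 1, 2 and 3, which did not overlap with the un-wounded values. The means were 1.37 ± 1.93% (SD, n = 2) and 14.96 ± 3.59% (SD, n = 3), a difference of 13.6 percentage points (two-sided exact permutation test, p = 0.1, the smallest p that 10 assignments can give). T cells themselves made up 2.58 and 3.31% of un-wounded and 1.38, 7.23 and 4.49% of wounded kept cells, so their own share overlapped between the groups. Among cells with a UMI of Ptprc, the pan-leukocyte gene, the NK share was 0 and 1.33% without a wound, and 1.98, 3.95 and 1.92% in wounded libraries 1, 2 and 3. The share of a cell type in a suspension also depends on how well the other cells were recovered, and keratinocyte recovery differed widely (3489 and 1711 un-wounded and 2501, 138 and 289 wounded cells with high Krt5 and Krt14 and no Ptprc UMI); its part in the shares was not tested.

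**Figure D1:**
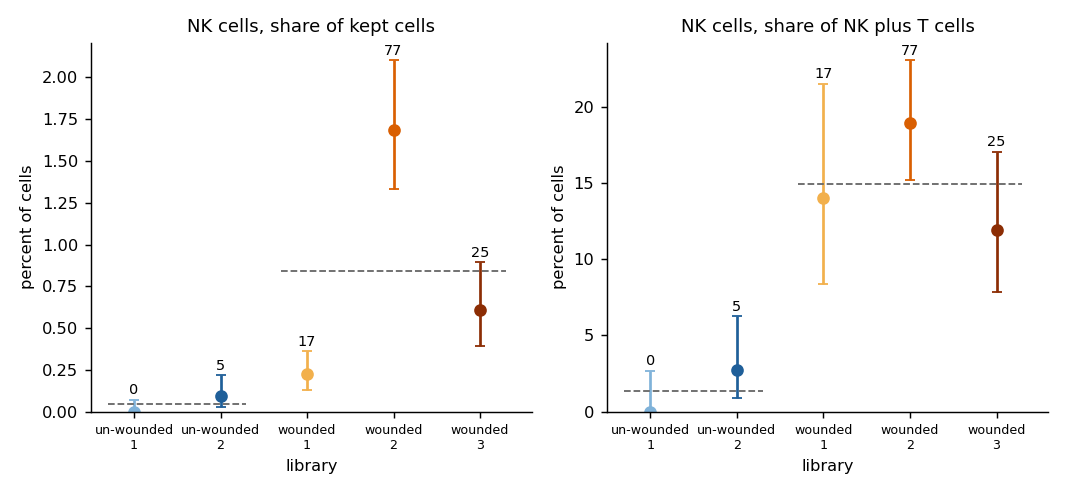
NK cells as a percentage of kept cells (left) and of NK plus T cells (right) in each library. Points are libraries, bars exact Clopper-Pearson 95% intervals, dashed lines group means, and the numbers above the bars count NK cells; all 3 wounded libraries lie above both un-wounded libraries in both panels.

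The boundary of the gate was as follows. Of 290 cells with a Ncr1 or Klrb1c UMI, 239 also had Nkg7, 130 of those had no Cd3 UMI and 124 met the limits on MHC class II and keratins. In un-wounded library 1, all 17 cells with a receptor UMI and Nkg7 carried Cd3 UMIs as well. Just outside, 17 cells had 1 Cd3 UMI and otherwise met the rule, and 86 had 2 or more. The 17 cells with 1 Cd3 UMI held 1968 CPM of Tyrobp and 2102 CPM of Gzma, against 2211 and 3326 in the 124 NK cells, and 0 UMIs of the T cell genes Cd5, Cd6 and Trat1. The 86 cells with more Cd3 held 690 CPM of Tyrobp, 697 of Gzma and 1458 of Cd7. T cells held 184 CPM of Tyrobp, 67.3 of Gzma and 976 of Cd7, and NK cells 325 of Cd7, so the 86 cells lay between the classes in Tyrobp and Gzma and above both in Cd7. Just inside, 17 NK cells had a single receptor UMI, and the most MHC class II in any NK cell was 21.1 UMIs per 10000, against 52.7 in the lowest cell left out for it. Another 31 cells failed only for lack of an Nkg7 UMI.

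The label was checked against markers that the rule did not use. Tyrobp was found in 119 and Fcer1g in 123 of the 124 NK cells, Klrk1 in 112, Klrd1 in 107, Klre1 in 93, Gzma in 89, Eomes in 40 and Prf1 in 18. Of 21 listed T cell genes outside the gate, 13 are in the tables, and Cd5, Cd6, Cd8a, Cd8b1, Trat1 and Themis were at 0 UMIs in all 677099 NK UMIs; genes of the T cell receptor constant regions were not analysed here. Others of the list were present: Thy1 had UMIs in 92 NK cells, Skap1 in 84, Cd28 in 41, Icos in 11, Ctla4 in 10, Camk4 in 5 and Cd4 in 1. Genes linked to other innate lymphoid cells were mixed. Of the type 1 list, Xcl1 had UMIs in 103 NK cells, Ltb in 61, Cxcr6 in 16, Il7r in 13 and the integrin Itga1 in 2. Of the 9 listed genes of type 2 and type 3 cells, 5 (Il17rb, Il13, Il5, Il23r, Il22) were at 0, Il1rl1 had 1 UMI, and Gata3 had UMIs in 30 cells. Itga2, an integrin of conventional NK cells, had UMIs in 3 cells. The low counts of Itga1 and Itga2 leave the resident and circulating kinds undivided by those genes.

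RNA of other cell types was present at levels that differed between types and libraries. The 4 listed fibroblast genes summed to 2751 to 4422 CPM in NK cells and 4118 to 19550 in T cells, macrophage genes to 0 to 78.8 and 21.3 to 402 CPM. Much of the fibroblast RNA lay in single cells: 175 of the 253 Col1a1 UMIs of NK cells in wounded library 2, and 71 of 77 in wounded library 3, came from 1 cell each. In wounded library 3, the neutrophil gene S100a8 had 114 of its 218 UMIs in 1 NK cell and 92 in another. In wounded library 1, keratinocyte genes outside the gate summed to 6050 CPM in NK cells, against 46.5 and 52.5 CPM in wounded libraries 2 and 3, and 240 of the UMIs of Krt15 came from 1 cell. Their part in the results below was not tested.

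NK cells were then compared with T cells of the same suspension by summing UMIs per library and class. The T gate had left out cells with both Cd3 and Ncr1 or Klrb1c UMIs. Of those, the 86 cells described above held 697 CPM of Gzma, 4196 of Xcl1 and 613 of Klrk1. T cells held 67.3, 864 and 248 CPM, so contrasts in such genes depend in part on the gates. Wounded libraries 2 and 3, with at least 20 cells of each class, entered edgeR's quasi-likelihood F test with library as a block (1 residual degree of freedom), and Benjamini-Hochberg adjusted p-values under 0.05 were called. Of 6078 genes tested outside the gate, 480 (7.9%) were called, 188 (3.09%) higher and 292 (4.8%) lower in NK cells. Adding wounded library 1 with its 17 NK cells gave 205 calls (4.29%) among 4778 genes, 93 higher (1.95%) and 112 lower (2.34%), and 200 of the 205 were also called with 2 libraries. Counts of calls ranged from 74 with DESeq2 (48 higher, 26 lower) to 494 without a filter on low counts, so both fits are given for each gene. Log2 fold changes are NK over T cells with their SE. The median log2 fold change over all genes was -0.04 with 2 libraries and -0.02 with 3. A p written as P2 or P3 below is the edgeR adjusted p with 2 or 3 libraries. P2 and P3 rest on 1 and 2 residual degrees of freedom and on a spread that edgeR shares across genes. Their size is therefore no measure of a gene's own spread between libraries.

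Lectin-like receptors of the NK gene complex were the group in which most members were higher. Of 12 listed killer lectin-like receptors other than the Ly49 family, 10 passed the filter on low counts, and 9 of those were called higher in both fits, with a median log2 fold change of 2.95 (2 libraries) over the 10 tested. Over all genes tested, 3.09% were called higher with 2 libraries and 1.95% with 3. Klre1, which forms receptors with Klri1 or Klri2, stood at 490, 622 and 387 CPM in NK cells of wounded libraries 1, 2 and 3 and at 3.42, 15.6 and 6.41 CPM in T cells (log2 fold change 5.52 ± 0.33, P2 = 2.4e-27, P3 = 6.2e-05). NK cells of every wounded library were above T cells of every library. Klrk1, the activating receptor NKG2D for stress ligands, stood at 971, 664 and 643 CPM in NK and 197, 213 and 167 CPM in T cells (log2 fold change 1.80 ± 0.24, P2 = 4.2e-09, P3 = 0.0012). The 5 NK cells of un-wounded library 2 held 1050 CPM of Klrk1, slightly above the highest wounded library. Klrd1 (CD94) and Klrc1 (NKG2A), which pair as an inhibitory receptor for non-classical MHC class I, had log2 fold changes of 2.62 ± 0.25 and 2.95 ± 0.29 (P2 = 4.74e-15 and 1.45e-14). Klrg1, an inhibitory receptor of mature cells, was the exception, with 18.85, 51.7 and 32.8 CPM in NK and 73.6, 87.0 and 151 CPM in T cells (log2 fold change -1.26 ± 0.38, P2 = 0.018), and its P3 was 0.092.

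Of the 10 listed Ly49 receptors, which bind classical MHC class I or viral ligands, 6 passed the filter. Klra3, Klra4, Klra7, Klra8 and Klra9 were called higher in both fits, against 3.09 and 1.95% of all genes tested. Their genes lie side by side on chromosome 6 (GRCm38, Klra8 at 130115226 to 130129898 on the minus strand) and are near-identical in places, so the split of reads between members is uncertain. Klra4 (Ly49D), an activating receptor, stood at 198, 429 and 420 CPM in NK cells of wounded libraries 1, 2 and 3 and had 0 UMIs in all T cells. It was at least 408-fold higher in NK cells over the wounded libraries as a whole, from a floor of 3 counts in their summed T cells. With 0 T cell UMIs, Klra4 passed the filter through NK cells alone and could only come out higher. Klra8 (Ly49H), an activating receptor for a cytomegalovirus protein, stood at 66.0, 325 and 112 CPM in NK and 0, 11.6 and 3.66 CPM in T cells (log2 fold change 4.82 ± 0.40, P2 = 3.1e-18, P3 = 4.5e-04). T cells of un-wounded library 2 stood apart, with 601 CPM summed over the Ly49 genes against 414 CPM in the 5 NK cells of that library, and with 241 CPM of Klra1, 153 of Klra7 and 116 of Klra9. Klra4 and Klra8 were found in some of the NK cells: Klra4 had UMIs in 35 and Klra8 in 39 of the 124 NK cells.

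Adaptors that couple these receptors to kinases were higher as well. Tyrobp (DAP12), with an activation motif, stood at 1847, 2521 and 1805 CPM in NK and 195, 251 and 278 CPM in T cells (log2 fold change 3.03 ± 0.19, P2 = 8.3e-26, P3 = 5.6e-05). Fcer1g, the adaptor of Ncr1 and of Fc receptors, stood at 2026, 2226 and 2094 CPM in NK and 1061, 445 and 532 CPM in T cells (log2 fold change 2.17 ± 0.17, P2 = 6.0e-19, P3 = 0.0098). T cells of un-wounded library 1 held 2000 CPM of Fcer1g, at the level of NK cells, so this gene does not set the classes apart in that library. Of 20 listed adaptors and kinases, 19 passed the filter with 2 libraries, and 7 were called higher in both fits, among them the SLAM adaptors Sh2d1a and Sh2d1b1 (log2 fold changes 1.73 ± 0.32 and 3.84 ± 0.62). Among all genes tested, 3.09% were higher with 2 libraries and 1.95% with 3. Lat, the scaffold of T cell receptor signalling, was lower in both fits, with 94.2, 54.2 and 45.9 CPM in NK and 248, 314 and 367 CPM in T cells (log2 fold change -2.69 ± 0.31, P2 = 2.6e-11, P3 = 0.0052). Cd247 (CD3 zeta) and Plcg1, also of that pathway, were lower with 2 libraries alone. The median log2 fold change over the 19 was 0.33.

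**Figure D2:**
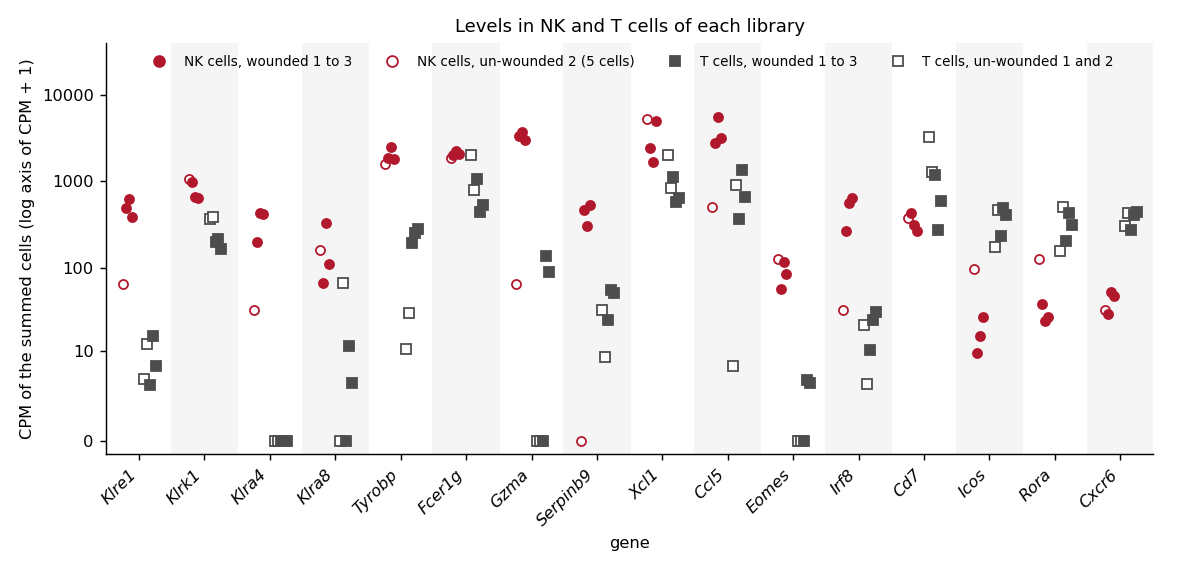
CPM of 16 genes in the summed NK cells (circles) and T cells (squares) of each library, on a log axis of CPM + 1; filled symbols are wounded and open symbols un-wounded libraries, and un-wounded library 1 held no NK cell. Klre1, Klra4, Tyrobp, Gzma, Eomes and Irf8 of wounded NK cells lie above all T cells, while Icos, Rora and Cxcr6 lie below.

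Granule genes were led by Gzma, a granzyme of mature NK cells. It stood at 3364, 3709 and 2999 CPM in NK cells of wounded libraries 1, 2 and 3, 3357 ± 355 (SD, n = 3), and at 0, 137 and 88.9 CPM in T cells (log2 fold change 4.92 ± 0.18, P2 = 5.5e-42, P3 = 0.0062). The wounded NK libraries agreed within a narrow range and lay far above all T cells. In wounded skin 73.1% of NK cells had a Gzma UMI, against 0.307% of 2928 keratinocytes with median depths of 6364 to 11197 UMIs, which serve as the background of free RNA. After thinning each cell to 1500 UMIs, the shares were 68.9 and 0.0342%. Wounded library 1, with 17 NK cells, gave 2501 of these keratinocytes, and libraries 2 and 3 gave 138 and 289. The pooled background thus says little of free RNA in library 2, which held 77 NK cells.

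The granzyme cluster on chromosome 14 behaved differently. Gzmb stood at 443, 1609 and 847 CPM in NK and 175, 323 and 664 CPM in T cells (log2 fold change 1.37 ± 0.23, P2 = 2.1e-06), but 384 of its 623 NK UMIs in wounded library 2 came from 1 cell, and P3 was 0.072. Gzmc stood at 424, 1043 and 3629 CPM in NK and 364, 909 and 671 CPM in T cells (log2 fold change 1.33 ± 0.21, P2 = 7.7e-07, P3 = 0.301), and 253 of 404 NK UMIs in wounded library 2 came from 1 cell. NK and T cells overlapped in both genes across the wounded libraries. Gzmd and Gzme, close relatives of Gzmc whose reads may be shared, had 0 UMIs in T cells and UMIs in 4 NK cells each, and 58 of the 65 Gzmd UMIs of wounded library 2 were in 1 cell. Prf1, the pore-forming perforin, was sparse, at 37.7, 51.7 and 19.7 CPM in NK and 13.7, 2.04 and 6.41 CPM in T cells (log2 fold change 3.31 ± 0.68, P2 = 1.6e-04), and was not tested with 3 libraries. Serpinb9 and Serpinb6b, protease inhibitors that guard cells against their own granule proteases, were higher in both fits, at 434 ± 115 and 449 ± 58.7 CPM (SD, n = 3) in wounded NK and 43.1 ± 16.8 and 68.7 ± 28.9 CPM in wounded T cells. Of 25 listed granule and death ligand genes, 20 passed the filter with 2 libraries, of which 11 were called higher and 1, the membrane fusion protein Stx11, lower. Over all genes tested, 3.09% were higher and 4.8% lower. Gzmd and Gzme are among the 11, passed the filter through NK cells alone and could only come out higher. With 3 libraries 16 passed, of which 6 were higher and 1 lower, against 1.95 and 2.34% of all genes tested. The median log2 fold change was 1.26 with 2 libraries.

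Promoters of Ncr1, which helped define the cells, and of Gzma, Gzmc and Xcl1, whose levels divide the NK cells further on, are shown from RefSeq (GRCm38.p6) as the 250 bases before the annotated start, on the gene's own strand. Capitals mark the T-box letters TCACAC and the Runx letters TGTGGT, searched on both strands (reverse forms GTGTGA and ACCACA), after the NK cell factors Eomes and Tbx21, which are T-box proteins, and Runx3. Windows of the same length hold the T-box letters in 12.2% and the Runx letters in 14.2% of 27025 promoters, and 9 of the 12 genes named as the largest rises had a listed promoter, 1 with T-box and 4 with Runx letters. A match is a description of the letters, not a binding site. The windows are chr7:4337465-4337714 on the plus strand and chr13:113100982-113101231, chr14:56234658-56234907 and chr1:164935523-164935772 on the minus strand.
Ncr1: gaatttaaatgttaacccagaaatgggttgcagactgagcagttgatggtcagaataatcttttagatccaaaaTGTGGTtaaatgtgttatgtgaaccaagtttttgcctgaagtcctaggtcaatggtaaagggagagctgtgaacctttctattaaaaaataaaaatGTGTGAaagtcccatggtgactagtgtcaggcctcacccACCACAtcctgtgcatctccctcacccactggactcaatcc
Gzma: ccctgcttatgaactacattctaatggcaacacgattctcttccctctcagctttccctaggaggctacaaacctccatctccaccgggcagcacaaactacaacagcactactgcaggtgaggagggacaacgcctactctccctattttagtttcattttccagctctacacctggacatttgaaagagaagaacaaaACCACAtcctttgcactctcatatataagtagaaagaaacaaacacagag
Gzmc: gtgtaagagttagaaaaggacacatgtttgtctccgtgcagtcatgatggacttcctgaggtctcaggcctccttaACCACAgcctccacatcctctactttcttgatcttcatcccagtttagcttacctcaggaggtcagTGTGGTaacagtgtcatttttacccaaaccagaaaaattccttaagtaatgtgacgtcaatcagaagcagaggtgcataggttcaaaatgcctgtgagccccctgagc
Xcl1: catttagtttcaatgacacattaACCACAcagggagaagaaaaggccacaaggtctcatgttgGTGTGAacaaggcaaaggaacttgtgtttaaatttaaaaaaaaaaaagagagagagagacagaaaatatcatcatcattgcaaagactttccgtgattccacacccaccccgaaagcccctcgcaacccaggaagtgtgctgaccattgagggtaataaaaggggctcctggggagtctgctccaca
Ncr1 held both kinds of letters, Xcl1 one of each, and Gzma and Gzmc held Runx letters alone.

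Among secreted factors, both fits called the chemokines Xcl1 and Ccl5 higher in wounded NK than wounded T cells, and interferon gamma was not called in both. Xcl1, which attracts cross-presenting dendritic cells, stood at 2422, 1661 and 5034 CPM in NK and 1114, 573 and 638 CPM in T cells of wounded libraries 1, 2 and 3 (log2 fold change 2.27 ± 0.18, P2 = 9.1e-20, P3 = 0.020). The highest value rests in part on 1 cell with 437 of the 767 UMIs of wounded library 3. T cells of un-wounded library 1 held 957 Xcl1 UMIs among 470525. That level was above NK cells of wounded library 2, with 643 among 387177, so Xcl1 does not set the classes apart across all libraries. Against T cells with 0 Icos UMIs, Xcl1 lost its call in the fit of 2 libraries. Ccl5, which attracts T cells and monocytes, stood at 2789, 5473 and 3164 CPM in NK and 368, 1335 and 661 CPM in T cells (log2 fold change 2.16 ± 0.14, P2 = 3.6e-25, P3 = 1.7e-04), with no overlap within the wounded libraries. In un-wounded library 2 the order was the other way, with 509 CPM in the 5 NK cells and 898 CPM in T cells. Ifng stood at 273, 119 and 236 CPM in NK and 82.1, 97.9 and 51.3 CPM in T cells (log2 fold change 1.17 ± 0.32, P2 = 0.0096, P3 = 0.104). Ccl3 and Ccl4, released by activated lymphocytes, had log2 fold changes of 0.20 ± 0.21 and 0.17 ± 0.22 (P2 = 0.73 and 0.81). Of 18 listed cytokines and chemokines, 15 passed the filter with 2 libraries, with 4 higher, 4 lower and a median log2 fold change of -0.48. Over all genes tested with 2 libraries, 3.09% were higher and 4.8% lower. Lower in both fits were Ltb, which encodes lymphotoxin beta (log2 fold change -0.90 ± 0.25), and the regulatory cytokine Il10 (-4.09 ± 0.90). Il17a, an effector cytokine of type 17 T cells, had 0 UMIs in NK cells against 0, 215 and 120 CPM in T cells of wounded libraries 1, 2 and 3, and was at least 30.6-fold lower in the wounded libraries together.

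Receptors for cytokines and homing divided the classes in both directions. Il2rb, the shared receptor chain for interleukins 2 and 15, stood at 292, 418 and 387 CPM in NK and 144, 171 and 153 CPM in T cells (log2 fold change 1.33 ± 0.25, P2 = 4.2e-05, P3 = 0.012). Il7r, the interleukin 7 receptor of most T cells and many innate lymphoid cells, stood at 37.7, 38.7 and 6.56 CPM in NK and 104, 367 and 210 CPM in T cells (log2 fold change -3.53 ± 0.36, P2 = 1.5e-13, P3 = 0.0070). Both classes kept apart in every wounded library. Il18r1, the interleukin 18 receptor, was not called (log2 fold change 0.37 ± 0.32, P2 = 0.645). Cxcr6, a receptor of tissue-resident lymphocytes, stood at 28.3, 51.7 and 45.9 CPM in NK and 277, 407 and 448 CPM in T cells (log2 fold change -3.08 ± 0.31, P2 = 6.6e-14, P3 = 3.5e-04), and Itgae, the residency integrin CD103, was lower too (-2.90 ± 0.48). Of 16 cytokine receptors, all tested, 3 were higher and 4 lower with 2 libraries, against 3.09 and 4.8% of all genes tested.

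Transcription factors followed the same division. Eomes, a T-box factor of conventional NK cells, stood at 56.5, 116 and 85.3 CPM in NK and 0, 4.08 and 3.66 CPM in T cells of wounded libraries 1, 2 and 3 (log2 fold change 4.68 ± 0.49, P2 = 3.3e-13, P3 = 9.0e-04). The 5 un-wounded NK cells held 127 CPM, from 4 UMIs in 3 cells, and un-wounded T cells 0. Tbx21 (T-bet), the related factor of type 1 lymphocytes, had a smaller difference (log2 fold change 1.78 ± 0.46, P2 = 0.0050, P3 = 0.036). Irf8, an interferon regulatory factor needed for the antiviral expansion of NK cells, stood at 264, 560 and 650 CPM in NK and 10.3, 24.5 and 30.2 CPM in T cells (log2 fold change 4.48 ± 0.29, P2 = 7.9e-25, P3 = 5.5e-05). Rora, a factor of type 2 and type 17 lymphocytes, stood at 37.7, 23.3 and 26.3 CPM in NK and 205, 432 and 311 CPM in T cells (log2 fold change -3.98 ± 0.36, P2 = 3.0e-16, P3 = 0.0010). Bcl11b, a T cell commitment factor, Gata3 and Ikzf2 were lower in both fits, with log2 fold changes of -5.49 ± 0.77, -1.76 ± 0.35 and -2.51 ± 0.33. Of 25 listed factors, 22 passed the filter with 2 libraries, of which 4 were higher and 8 lower, against 3.09 and 4.8% of all genes tested. Id2, the general factor of innate lymphocytes, was not called (0.10, P2 = 0.90).

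The genes with the steepest falls were T cell genes that NK cells lacked altogether in the fitted libraries. Tnfrsf4 (OX40), a costimulatory receptor of activated T cells, had 0 UMIs in the NK cells of all 3 wounded libraries against 471, 387 and 530 CPM in T cells, at least 97.4-fold lower from a floor of 3 counts. One of the 5 un-wounded NK cells nevertheless held 14 UMIs of it. Cd8b1, Cd5, Cd6 and Actn2 were likewise at 0, at least 18.3-, 16.3-, 14.8- and 17.6-fold lower. Pdcd1 (PD-1) was at 0 in wounded libraries 2 and 3 but had 5 UMIs in 1 NK cell of wounded library 1 (P2 = 7.31e-12, P3 = 0.118), and Cd163l1, a scavenger receptor of gamma delta T cells, had 2 UMIs there. With 0 NK UMIs in the 2 libraries behind P2, Pdcd1 passed that filter through T cells alone and could only come out lower. Icos, a costimulatory receptor found in 367 of 619 wounded T cells, stood at 9.42, 15.5 and 26.3 CPM in NK and 231, 498 and 410 CPM in T cells (log2 fold change -4.59 ± 0.37, P2 = 5.7e-19, P3 = 2.0e-04). Genes shared by both lineages showed no call in either fit, namely Thy1 (-0.52 ± 0.21), Cd7 (-0.41 ± 0.26) and Cd28 (-0.79 ± 0.29). Of the 12 T cell genes tested with 2 libraries, 9 were lower, and with 3 libraries 7 of 11, against 4.8 and 2.34% of all genes tested. Among the 9, Cd5, Cd6, Cd8a, Cd8b1 and Themis had 0 NK UMIs. These passed the filter through T cells alone and could only come out lower, so the count is no test of the list. The median log2 fold change of the tested T cell genes was -4.47 as fitted with 2 libraries, and -3.49 with genes at 0 UMIs set at their bound.

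**Figure D3:**
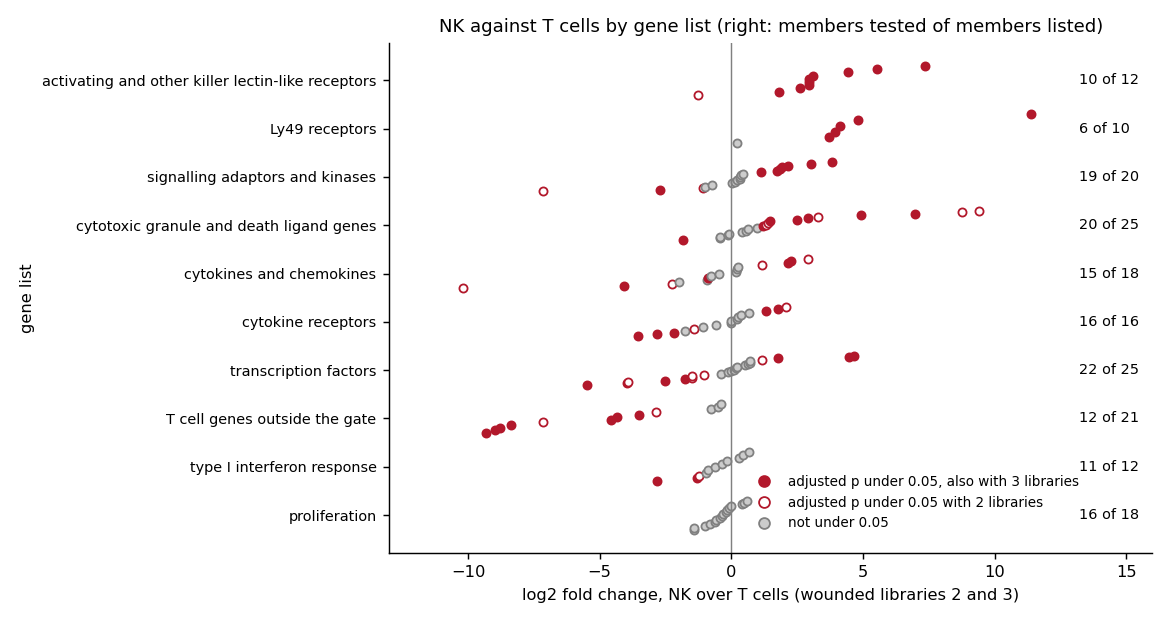
Log2 fold change of NK over T cells (edgeR, wounded libraries 2 and 3) for each tested member of 10 gene lists, with the number tested of those listed at the right. Filled red points were called with 2 and with 3 libraries, open red points with 2 alone, grey points were not called; receptor lists lie mostly to the right of 0 and T cell genes to the left, while no proliferation gene was called.

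Genes outside the lists among the largest rises were Car2, a carbonic anhydrase, and Khdc1a. Car2 stood at 367, 426 and 420 CPM in NK and 5.13, 10.2 and 9.16 CPM in T cells (log2 fold change 5.43 ± 0.33, P2 = 7.3e-27, P3 = 5.5e-05). Khdc1a, with UMIs in 28 NK cells, had 1 UMI in all wounded T cells (log2 fold change 6.74 ± 0.81, P2 = 8.9e-11, P3 = 0.0018). It thus passed the filter through NK cells alone and could only come out higher. Both classes differed little in MHC class I genes, where 2 of 12 were higher (H2-Q6 and H2-Q7) in both fits. Of all genes tested, 3.09% were higher with 2 libraries and 1.95% with 3. Of 12 type I interferon response genes, 11 passed the filter with 2 libraries and 3 were lower, against 4.8% of all genes tested. Ifi27l2a led them at 302, 132 and 131 CPM in NK and 1140, 1030 and 846 CPM in T cells (log2 fold change -2.83 ± 0.25, P2 = 5.7e-17, P3 = 7.5e-04). The 15 immediate early and heat shock genes, which respond to tissue dissociation as well as to signals in tissue, held 4 lower (Junb, Hspa1a, Hspa1b, Hsp90aa1) with 2 libraries and 2 of these (Junb, Hspa1a) with 3. The share lower over all genes tested was 4.8% with 2 libraries and 2.34% with 3.

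The proliferation list was read as the number of cells with UMIs of at least 2 of its 18 genes after thinning to 1500 UMIs. Such cells were 2 of 5 NK cells in un-wounded library 2 and 9 of 17, 22 of 77 and 4 of 25 in wounded libraries 1, 2 and 3 (52.9, 28.6 and 16%). T cells of those wounded libraries counted 35 of 104, 60 of 330 and 33 of 185 (33.7, 18.2 and 17.8%), and keratinocytes 19.8, 12.3 and 15.2%. NK cells of wounded library 1 were highest, and the order of NK and T cells was not the same in every library. The list holds genes found well beyond dividing cells, and the count is not a count of dividing cells: after thinning, Hmgb2 had UMIs in 2, 8, 38 and 13 NK cells of un-wounded library 2 and wounded libraries 1, 2 and 3, while Mki67, a marker of cycling cells, had UMIs in 0, 3, 5 and 0. Of 18 proliferation genes, 16 were tested, and edgeR called 0 in both fits, with 3 and 2 under an unadjusted p of 0.05 and 0 calls by DESeq2 in both. The share that edgeR called over all genes tested was 7.9% with 2 libraries and 4.29% with 3. Top2a, a topoisomerase of dividing cells, stood at 320, 54.2 and 52.5 CPM in NK and 92.4, 77.5 and 92.5 CPM in T cells. Summed over the list, NK cells held 6097, 1883 and 1181 CPM and T cells 2435, 1523 and 2282 CPM.

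Within the NK cells, those with and without a Gzma UMI differed in other genes; this division was chosen after the values were seen and carries no test. In wounded skin, 87 cells had a Gzma UMI (12 of 17, 61 of 77 and 14 of 25 in libraries 1, 2 and 3) and 32 had none, at median depths of 3788.5 to 4455.5 and 3927 to 5365 UMIs. The 87 cells held 530 CPM of Klra4 and 326 of Klra8, and the 32 cells held 37.8 and 0 CPM. Itgam, an integrin of mature NK cells, had 20 UMIs in 16 of the 87 cells and 0 in the 32. Conversely, Cd7 stood at 239 and 529 CPM, Cxcr6 at 4.35 and 151 CPM and Il7r at 6.52 and 91.7 CPM in cells with and without Gzma. The Cxcr6 UMIs lay in 2 of 87 and 13 of 32 cells. The order held within each of the 3 wounded libraries for Klra4, Klra8, Tyrobp, Cxcr6 and Il7r, but not for Cd7 in library 3 (284 CPM with and 258 without Gzma). In places it rests on 1 or 2 UMIs. Il7r in library 3 had 0 UMIs with and 1 without Gzma, and Cxcr6 in library 1 had 1 with and 2 without. Tyrobp was at 2611 and 1322 CPM and Klrk1 at 741 and 631 CPM, and Eomes had UMIs in 33 of the 87 and 4 of the 32 cells. Tyrobp had UMIs in all 87 cells and in 27 of the 32. In wounded library 3, 1 of the 32 cells had 13606 UMIs but 0 of Gzma, Gzmb, Gzmc, Xcl1, Ccl5, Tyrobp and Eomes. The 32 cells may thus include cells other than NK cells, and their part in these contrasts was not tested. A missing UMI can also mean that a transcript was not captured, and 5 of the 87 cells held only 1 or 2 Gzma UMIs; the part of capture was not tested.

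Gzmc and Xcl1 were less even across libraries. Gzmc stood at 76.1, 1180 and 269 CPM in cells with Gzma and 1430, 454 and 6269 CPM in cells without it in wounded libraries 1, 2 and 3, so library 2 went the other way. Xcl1 stood at 2423, 1116 and 1358 CPM with and 2419, 4013 and 7921 CPM without Gzma, which is nearly equal in library 1. In library 3, 1 cell without Gzma held 437 Xcl1 UMIs, and without it the 7921 CPM became 3673. Of 31 wounded NK cells with a Gzmc UMI, 19 had Gzma and 12 did not. The 12 held 9207 CPM of Xcl1 and 7277 of Gzmc, against 1752 of Xcl1 in the 19 cells with both granzymes and 1233 in the 68 with Gzma alone. By library, Xcl1 stood at 8856, 6730 and 9821 CPM with Gzmc alone and 19742, 673 and 1336 CPM with both granzymes in wounded libraries 1, 2 and 3, so library 1 went the other way. Without the cell of 437 UMIs, the 9207 CPM became 5243 and the 9821 CPM of library 3 became 4093. Of the un-wounded NK cells, 3 of the 5 had Gzmc alone, at 4761 CPM of Xcl1, and 1 had both, at 6928 CPM. Cells with neither granzyme numbered 20 and held 2608 CPM of Xcl1, 196 of Cxcr6 and 147 of Il7r.

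**Figure D4:**
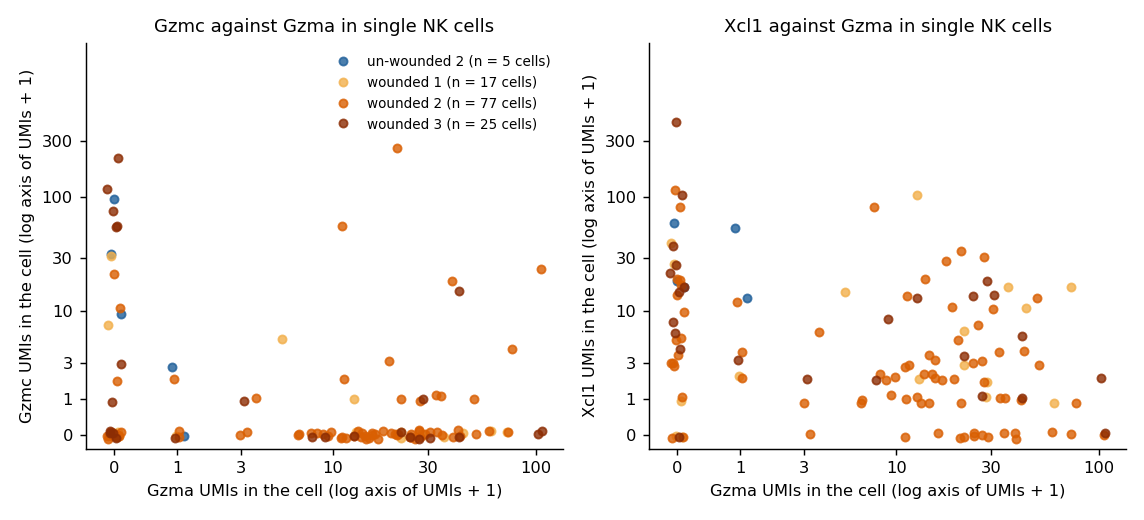
UMIs of Gzmc (left) and Xcl1 (right) against UMIs of Gzma in each of the 124 NK cells, coloured by library, on log axes of UMIs + 1 with a small seeded offset to separate points. Most Gzma-positive cells lie at 0 Gzmc UMIs, and several cells of wounded library 3 and of un-wounded library 2 lie at 0 Gzma and high Gzmc.

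Wounded and un-wounded NK cells could be set side by side only as values, because un-wounded NK cells came from 1 library and numbered 5, with 31435 UMIs against 645664 in the 3 wounded libraries. No test was run, and intervals below are 95% counting intervals of pooled CPM ratios that leave out the spread between libraries. Gzma had 2 UMIs, 63.6 CPM, in un-wounded NK cells, and the ratio of wounded over un-wounded was 54.8 (15.1 to 453). Each wounded library held at least 2999 CPM. Irf8 and Gadd45g, a stress-induced gene, had 1 UMI each in un-wounded cells (ratios 16.7, 2.99 to 663, and 20.1, 3.58 to 794), and the chemokine Ccl4 had 2 (ratio 15.5, 4.28 to 129). Cxcl2, a neutrophil-attracting chemokine, was at 0 in un-wounded cells and 179, 1942 and 512 CPM in wounded libraries, at least 13.8-fold higher from a floor of 3 counts, with 380 of the 752 UMIs of library 2 in 1 cell. Gadd45g likewise had 267 of 326 UMIs of library 2 in 1 cell. Ccl5 stood at 509 CPM in un-wounded NK cells and 2789 to 5473 in wounded libraries (ratio 8.82, 5.42 to 15.4). The ratios of Gzma and Ccl5 depend on the gate. In un-wounded library 2, the 5 NK cells held 2 Gzma and 16 Ccl5 UMIs. The 2 cells there that failed only for 1 Cd3 UMI held 9 and 55 among 15765 UMIs, each gene in 1 cell. The smooth muscle actin Acta2 also passed the rule for named genes, with 15.5 CPM in wounded library 2 against 1903 and 571 in the others, and 174 of the 202 UMIs of library 1 lay in 1 cell.

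Other NK genes differed in how the 5 un-wounded cells compared. Klre1 and Klra4 stood at 63.6 and 31.8 CPM, from only 2 and 1 UMIs, below the lowest wounded libraries at 387 and 198 CPM. Klra8 had 5 UMIs in 2 of the 5 cells, 4 of them in 1 cell. Its level lay above wounded libraries 1 and 3 and below library 2. Tyrobp stood at 1591 CPM, with 50 UMIs across all 5 cells, and 1805 to 2521 CPM in wounded libraries (ratio 1.41, 1.06 to 1.91). Xcl1 and Gzmc stood at 5217 and 4581 CPM, above all 3 wounded libraries, and wounded library 3 came nearest, at 5034 and 3629 CPM. The Gzmc level rests largely on 1 un-wounded cell, with 97 of the 144 UMIs. For Xcl1, the highest cell held 61 of 164. In the other direction, the 6 genes named for the largest pooled falls were Bgn, Cyr61, Cyb5r3, Klf4, Lmna and Cd83. Bgn, a matrix proteoglycan of fibroblasts, stood at 1113 CPM in un-wounded and 75.4, 93.0 and 59.1 CPM in wounded NK cells, 13.6-fold (8.59 to 21.2) higher in un-wounded cells. Cd83, an activation marker, stood at 763 CPM and at 302, 38.7 and 144 CPM. These differences rest largely on single cells: 1 un-wounded NK cell held 33 of the 35 Bgn UMIs, and 1 cell each held 31 of 33 for Cyr61, 35 of 37 for Klf4, 15 of 18 for Cyb5r3 and 21 of 24 for Cd83. Lmna, a nuclear lamin, was spread wider, with 51 UMIs over all 5 cells, 30 of them in 1. The summed immediate early and heat shock list was 19342 CPM in un-wounded NK cells against 9206, 6984 and 5198 CPM in wounded ones, and 22154 and 17164 against 16270, 9696 and 9989 CPM in T cells.

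**Figure D5:**
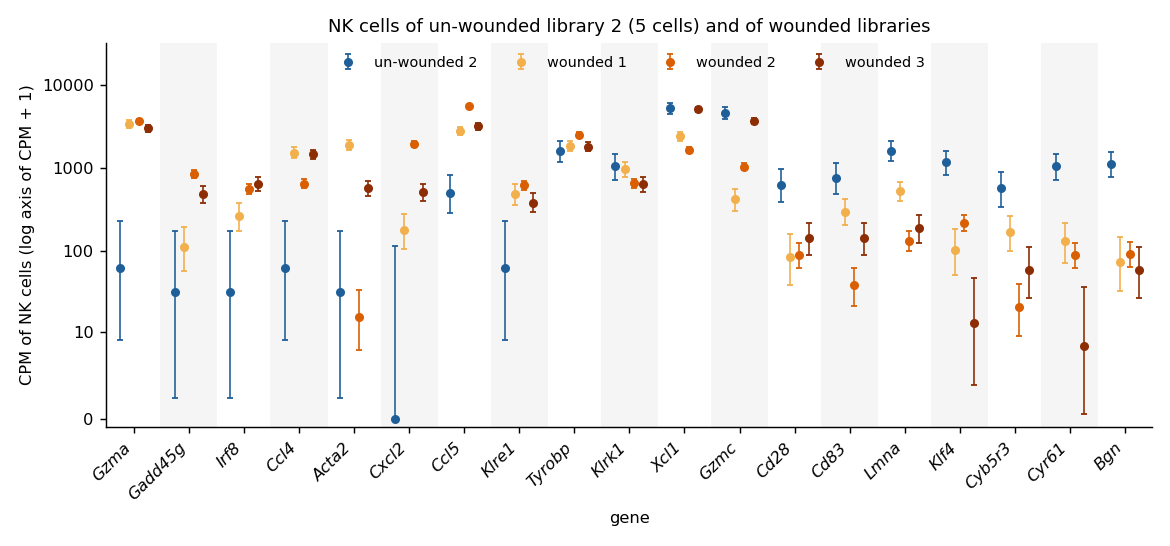
CPM of 19 genes in the summed NK cells of un-wounded library 2 (5 cells) and of wounded libraries 1, 2 and 3, with exact Poisson 95% counting intervals, on a log axis of CPM + 1. Gzma, Irf8, Ccl4, Ccl5 and Klre1 are lower in the un-wounded cells than in each wounded library, and Bgn, Cyr61, Lmna and Cd28 are higher, while Tyrobp and Klrk1 lie close together; most un-wounded Bgn and Cyr61 UMIs came from 1 cell each.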

How the data were processed

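The authors deposited UMI counts for each gene and barcode without scaling; the submitters' processing notes name Cell Ranger 1.3.1 and build mm10; how barcodes were filtered is not given in the sources used here. Cells were gated as the report states, with doublets kept in the main gate. UMIs were summed per library and class. The fit, in R 4.3.3, was edgeR 4.0.16's quasi-likelihood test with library as a block, after filterByExpr and TMM scaling. Printed CPM use plain class totals, while log2 fold changes carry TMM scaling. Alternatives used DESeq2 1.42.0 and Scrublet in scanpy 1.11.5. Shares were compared by exact permutation over libraries, with Clopper-Pearson intervals. The fits were tested on simulated data. Gene positions come from GENCODE M21 (GRCm38), matched for 27722 of 27998 IDs, and promoters from RefSeq.

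Members, lists and tests were chosen with earlier results of these data known. Named genes are the 12 largest rises and 8 largest falls among NK against T calls (log2 fold changes of 1 or more in size, 50 CPM or more in the class with more, one direction in all libraries), the 6 largest pooled rises and 6 falls between wounded and un-wounded NK cells among 1476 genes with at least 50 UMIs, the 3 members of each list with most NK UMIs, and 20 lineage genes. Genes of the gate, mitochondrial and ribosomal genes, and Gm-number or Rik names did not count. Other genes were named after their values were seen. Tests of the wound within NK cells, and of its difference from T cells, needed at least 10 NK cells in 2 libraries of each group and were not run. Tables and figures used numpy 2.4.6, scipy 1.17.1, matplotlib 3.10.9 and pandas 2.3.3 under Python 3.11.15. Gene symbols on more than 1 row of the tables were summed for levels. Some genes of the lists are not reported here.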

Additional observations from a re-analysis of the deposited data

How the results depend on the processing

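Both share differences kept their direction under every alternative run. The difference in share of kept cells ranged from 0.370 to 1.10 percentage points when 1 library was left out, and that in NK plus T cells from 11.6 to 15.1. It was 8.25 points with T cells taken at 1 Cd3 UMI. Counts of genes called between NK and T cells depended strongly on the fit: 480 in the reported fit, 74 with DESeq2, 98 with no library block, 203 and 110 against T cells with and without an Icos UMI, 205 with 3 libraries, and 128 with 3 libraries and DESeq2. Leaving out wounded library 2 or 3 from the 3 gave 129 to 277. Leaving a library out of the 2-library fit leaves no residual degrees of freedom and was not run. Without a filter on low counts, 494 genes were called and the median log2 fold change of all genes moved to -0.35. Of 55 named genes called, DESeq2 kept 26 and 3 libraries kept 38; 10 lost their call there, among them Gzmb, Gzmc, Ifng, Gadd45g and Pdcd1.

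Log2 fold changes that changed sign were those of Acta2 (-1.35 with the highest Scrublet scores left out), Col3a1 (-1.76 with at least 2 receptor UMIs and -1.46 with 3 libraries less wounded library 3), Gadd45g (-0.31 with 3 libraries less wounded library 2) and S100a9 (-0.20 against T cells without Icos, -0.13 with 3 libraries and DESeq2, -1.06 with 3 libraries less wounded library 3). The cause was not tested. Calls of genes the report names also fell away: with 3 libraries less wounded library 2, 16 lost it, among them Xcl1, Il2rb, Il7r, Ltb, Gata3 and Cd8b1, and, as some of 21 with no library block, Ccl5, Xcl1, Tbx21 and Prf1. With DESeq2, 27 lost their call, among them Klra4, Gzmb, Gzmc, Gzmd, Gzme, Ifng, Il2rb, Tbx21, Gata3, Ltb, Junb and the falls of Tnfrsf4, Il17a, Cd5, Cd6 and Cd8b1. The DESeq2 fit of 3 libraries, the Xcl1 level without 1 cell and the fits that leave 1 of the 3 out were chosen after seeing the data; the other alternatives were planned. The comparison of NK with T cells was blocked by library throughout, except where stated. No paired analysis was possible because, between wounded and un-wounded skin, un-wounded libraries 1 and 2 held 0 and 5 NK cells. With 124 NK cells, genes of few UMIs per cell are at the limit of what this depth can show.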
